A study of Homo sapiens with 14 samples.

Results

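Acrylonitrile-treated and untreated RNA from HEK293T cells that had never received 4-thiouridine (s4U) was compared gene by gene. HEK293T is a human embryonic kidney line that carries the SV40 large T antigen. The genes were chosen by depth alone: a gene entered when at least 20 fragments fell in it in 2 or more of the 4 libraries concerned, and 15628 of the 57820 genes in the tables did. Of the genes that entered, 31 did so only through both acrylonitrile libraries and 1848 only through both untreated libraries, which were the deeper ones, and 12874 had 20 fragments in all 4. The members held between 99.51% and 99.56% of all fragments that fell in genes.

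The series sequenced polyadenylated RNA that had been broken into short pieces before the chemical step, on paired reads. The 2 untreated libraries (called untreated 1 and 2 here) had neither s4U nor acrylonitrile, and the 2 acrylonitrile libraries (acrylonitrile 1 and 2) had the chemical step without s4U. The 4 libraries held 13102014, 11860513, 7778685 and 6074118 fragments in that order. The same contrast in RNA of cells fed s4U for 24 h was placed beside them, with 2 libraries per arm. Those libraries also shared the scaling and the estimate of the spread in the test of fragments per gene, fitted over 8 libraries. Some of their mismatch shares and marker sums are quoted as well. The labels put that RNA at 50 µM s4U without acrylonitrile and at 500 µM with it, while the protocol text names 50 µM alone. The dose of the treated arm is therefore uncertain. Whether the untreated RNA went through a mock incubation is not stated in the sources used here, so acrylonitrile itself and the incubation that carried it cannot be told apart. Nor is it stated that the 2 libraries of a group came from separate cultures, and the p-values then measure the spread between these libraries only.

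Acrylonitrile is a small electrophile. In alkaline solution it adds a cyanoethyl group to the sulfur of s4U, the modified base pairs with guanine rather than adenine during reverse transcription, and the site is then read as a T-to-C mismatch. Ordinary uridine carries no sulfur at that position, so RNA without s4U is the control for mismatches that the chemistry and the library steps produce on their own. Since the reagent acts on RNA fragments before cDNA is made, the same control also records any change in which transcripts are recovered.

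Markers of the cell type and of blood cells were looked up. VIM, PAX2, NEFL, NEFM and LIN28B, 5 of 6 genes linked to HEK293 cells, passed the depth rule, whereas NEFH had at most 1 fragment in any library. None of 10 blood cell markers passed, and HBB and CD3E had no fragment in the 4 libraries. By the same rule 8 of 16 liver, 6 of 10 breast and 2 of 7 fibroblast markers passed, so passing it does not identify the line.

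The genes at the ends of the ranking differed in base composition, and short pieces of 5 of them are printed here. The stretches below are the 30 bases at the middle of the coding sequence of 2 of the first protein-coding genes of the rises and the first 3 of the falls, read from the GRCh37 genome on the gene's own strand with G and C in capitals. The first 2 rose and the last 3 fell with acrylonitrile.
ALB (chr4:74279192-74279221, plus strand): aGGaatGCtGtGaaaaaCCtCtGttGGaaa
RP4-583P15.14 (chr20:62369734-62369763, plus strand): tCaGCCtGGCGGCCaGCCCtGtGGtGGCCG
GMFB (chr14:54947645-54947674, minus strand): CttCattGtGtataGttataaatatCaaCa
PUS7L (chr12:44142256-44142285, minus strand): aGCaatGGttGttaGaaaaGtGaCtCCaGa
ZBTB41 (chr1:197159911-197159940, minus strand): aGaatttatttCCattaaGaaGaCtaaGaG
G and C made up 23 of the 30 bases in RP4-583P15.14, against 7 in GMFB and 8 in ZBTB41. ALB and PUS7L each had 12, so ALB did not differ from PUS7L in this count.

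The first question was what share of the fragments was left outside the annotated genes. These fragments were not located, and their number is the library total minus the sum over genes. Any fragments of mitochondrial genes, all listed at 0, would fall among them. In acrylonitrile 1, 13 fragments with 13 mismatches were counted in genes but 12 in the library, so some fragments counted more than once. By this subtraction, outside the annotated genes lay 9.38% and 9.39% of the fragments of untreated 1 and 2, and 29.1% and 31.4% of those of acrylonitrile 1 and 2. The mean was 9.39% ± 0.00902 (SD, n = 2) without and 30.3% ± 1.67 (SD, n = 2) with acrylonitrile, a difference of 20.9 percentage points. The groups did not overlap, and the two-sided exact permutation test gave p = 0.333, the smallest value that 2 libraries against 2 allow. The 95% Wilson intervals of the acrylonitrile libraries were 29.0% to 29.1% and 31.4% to 31.5%, and these and all later intervals cover counting error only.

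The second question was whether acrylonitrile raised mismatches in RNA without s4U. Inside genes the groups overlapped in fragments with at least 1 mismatch: 7.61% and 7.35% of the fragments of untreated 1 and 2 carried at least 1 mismatch, against 7.49% and 7.81% in acrylonitrile 1 and 2. The acrylonitrile libraries lay 0.17 percentage points higher on average, with acrylonitrile 1 between the untreated ones (two-sided exact permutation p = 0.667). Fragments with at least 2 mismatches did not overlap, at 1.07% and 1.00% without and 1.10% and 1.30% with acrylonitrile (exact permutation p = 0.333), a difference of 0.163 points, with acrylonitrile 1 close to untreated 1. Outside genes the share was 24.3% and 24.5% without and 28.8% and 28.7% with acrylonitrile, a difference of 4.40 percentage points with no overlap (exact permutation p = 0.333). Fragments outside genes supplied 25.3% ± 0.603 (SD, n = 2) of all mismatch-bearing fragments of the untreated libraries and 62.0% ± 1.09 (SD, n = 2) of those of the acrylonitrile libraries.

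The number of mismatches per fragment was read next. Inside genes, fragments with exactly 1 mismatch were 6.44% of the total without and 6.45% with acrylonitrile, a ratio of 1.00. The ratio was 1.07 at 2 mismatches, 1.15 at 3, 1.31 at 4, 1.49 at 5 and 1.98 at 6 or more, where the shares were 0.0385% and 0.0761%. Acrylonitrile 2 carried most of that excess: its share with 6 or more was 0.100%, against 0.0520% in acrylonitrile 1 and 0.0408% and 0.0361% in untreated 1 and 2. Outside genes the ratio was 1.13 at 1 mismatch and 1.44 at 4, and it fell to 1.05 at 6 or more. In percentage points of all fragments in genes, the difference was 0.0069 at exactly 1 mismatch, 0.0498 at 2, 0.0305 at 3, 0.0257 at 4, 0.0192 at 5 and 0.0377 at 6 or more. Outside genes it was 2.02 points at 1 mismatch, 1.25 at 2 and 0.0212 at 6 or more.

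**Figure D1:**
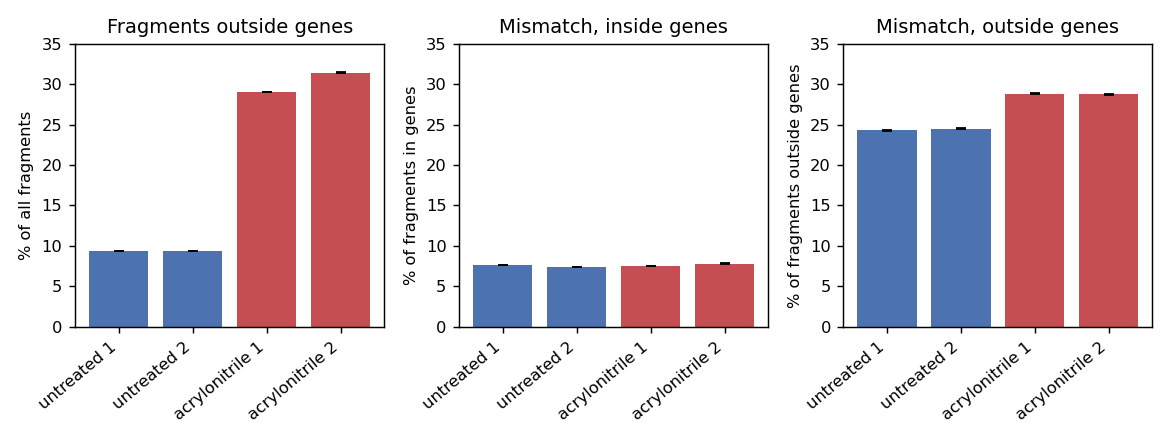
Bars give, for each of the 4 libraries, the percentage of all fragments that lie outside annotated genes (left), of fragments in genes with at least 1 mismatch (middle) and of fragments outside genes with at least 1 mismatch (right), with 95% Wilson intervals as error bars too short to see at this scale. Fragments outside genes are the library total minus the sum over genes. The acrylonitrile libraries (red) stand at 29.1% and 31.4% on the left against 9.38% and 9.39% in untreated RNA (blue), while the middle bars all lie between 7.35% and 7.81%.

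Fragments per gene were then compared, after scaling the libraries to each other with TMM factors (a trimmed mean of the gene ratios) and testing with edgeR. Adjusted p was under 0.05 for 10823 of the 15628 genes, or 69.3%. Acrylonitrile raised 5327 of them (34.1% of all genes tested) and lowered 5496 (35.2%). The change was over 2-fold in 2949 genes that rose and 3245 that fell, and over 4-fold in 356 and 472. The CPM of both treated libraries lay above both untreated ones in 6771 genes (43.3%) and below both in 7422 (47.5%). Among the 12874 genes with 20 fragments in all 4 libraries, 5116 rose and 4204 fell. The direction is relative to the scaling. The median gene stood at a log2 fold change of −0.08 under TMM and at −0.82 when the libraries were scaled to all of their fragments, in or out of genes, and 2128 genes then rose while 9127 fell (18.9% of calls higher, against 49.2%).

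The largest rises took in genes of early development, a secreted liver protein and several unnamed loci. UTF1, a transcriptional regulator of undifferentiated embryonic cells (chr10:135043778-135045062), had 3.57 and 4.16 normalised fragments per 1000000 (CPM) without and 29.0 and 37.0 CPM with acrylonitrile. Both treated libraries lay above both untreated ones, by 3.08 ± 0.30 on the log2 scale (SE; adjusted p = 2.59e-05). FOXD3, a forkhead factor of the neural crest, went from 6.15 and 6.06 CPM to 41.7 and 49.7 CPM (log2 fold change 2.90 ± 0.36, adjusted p = 8.90e-05). TWIST1, a basic helix-loop-helix factor of mesenchymal cells, went from 9.46 and 10.8 CPM to 69.1 and 72.4 CPM (2.80 ± 0.19, adjusted p = 1.01e-05). These 3 genes were named because they were among the largest rises with non-overlapping CPM. Their similar size and separated groups were therefore set by that choice and are no shared trait of developmental factors. Their treated replicates were closest in TWIST1 (69.1 and 72.4 CPM) and further apart in UTF1 (29.0 and 37.0 CPM).

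MARCKS, an actin-binding substrate of protein kinase C, was the most abundant gene of this group with 166.5 and 166.4 CPM in untreated RNA. It stood at 1085 and 1287 CPM with acrylonitrile, a log2 fold change of 2.83 ± 0.22 (adjusted p = 1.26e-05). EVA1B, a membrane protein gene, had 5.56 and 5.84 CPM without and 35.5 and 43.1 CPM with acrylonitrile (2.78 ± 0.20). ALB, serum albumin, had 8.40 and 8.69 CPM without acrylonitrile but 44.1 and 127.3 CPM with it (3.31 ± 0.50, adjusted p = 0.000296). Its 2 treated libraries differed far more from each other than those of the other largest rises. MIR3648, a microRNA gene on chromosome 21 (9825832 to 9826011), had the highest value of the group, 3.49 ± 0.69, from 57.0 and 56.9 CPM to 575.3 and 704.6 CPM. The other 3 were the protein-coding locus RP4-583P15.14 (3.13 ± 0.25), the 3′ overlapping transcript CTD-2540B15.13 (3.11 ± 0.26) and the pseudogene RP11-80H5.5 (2.96 ± 0.21), whose reads may belong in part to its parent gene. CTD-2540B15.13 carried a mismatch in 56.2% and 57.0% of its fragments without and in 60.2% and 65.0% with acrylonitrile. These shares are far above the median gene, and the placement of its reads was not tested.

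The 10 largest falls were led by genes with few treated fragments. GMFB, an actin-network regulator of the ADF/cofilin family (chr14:54941202-54955914), had 329 and 324 fragments in the untreated libraries and 6 and 7 in the treated ones. This was 21.8 and 23.7 CPM against 1.09 and 1.71 CPM, a log2 fold change of −4.05 ± 0.30. PUS7L, a member of the pseudouridine synthase family, fell from 18.1 and 19.9 CPM to 1.63 and 1.71 CPM (−3.50 ± 0.27). ZBTB41, a zinc finger gene, fell from 13.3 and 14.5 CPM to 1.45 and 1.22 CPM (−3.35 ± 0.24). In each of these genes both treated libraries stood on only 5 to 9 fragments each. The 3 genes met the depth rule only through the untreated libraries, where they were high, and that rule favoured their fall. The same held for C5orf51 (269 and 252 fragments against 10 and 8, −3.26 ± 0.22) and the glucose transporter pseudogene SLC2A3P1 (340 and 281 against 10 and 12, −3.22 ± 0.48, reads possibly shared with its parent gene).

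The other 5 had more fragments on average over the 4 libraries. ABCE1, which splits ribosomes for recycling, had 68.0 and 71.2 CPM without and 7.98 and 10.5 CPM with acrylonitrile (log2 fold change −2.93 ± 0.20, adjusted p = 1.01e-05). SDCBP, the adaptor protein syntenin, fell from 39.97 and 43.2 CPM to 5.44 and 5.38 CPM (−2.94 ± 0.19). MMADHC, a gene of vitamin B12 metabolism, fell from 32.3 and 33.1 CPM to 4.90 and 3.43 CPM (−2.94 ± 0.19). LYPLAL1, a lysophospholipase-like gene, had 36.5 and 39.5 CPM without and 6.53 and 2.45 CPM with acrylonitrile (−3.01 ± 0.29), with the treated libraries apart from each other. RP6-24A23.7, a transcript that overlaps another gene on the X chromosome, had 280.0 and 270.6 CPM without and 38.1 and 32.8 CPM with acrylonitrile (−2.95 ± 0.19).

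**Figure D2:**
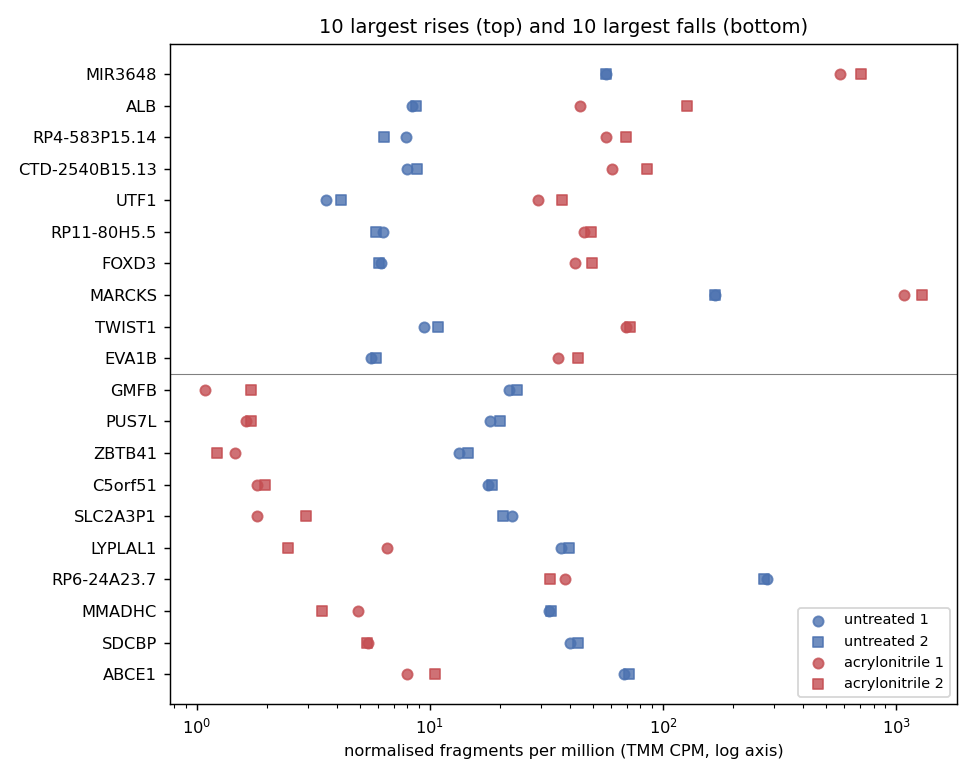
Points give the TMM-normalised CPM (log axis) of the 10 top rises and the 10 top falls among called genes with a mean of at least 100 fragments, in untreated (blue) and acrylonitrile-treated (red) RNA, circles for replicate 1 and squares for replicate 2. In all 20 genes the colours are apart, which the choice of genes with non-overlapping CPM required. ALB and LYPLAL1 show wide gaps between the treated replicates.

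Base composition ordered the changes. For 15168 of the genes a transcript could be matched, and the GC content of that transcript correlated with the log2 fold change with a Spearman rho of 0.75 over the genes, which are no replicates of each other (Pearson r 0.74). Each acrylonitrile library set against each untreated one gave a rho between 0.73 and 0.75, while the 2 untreated libraries set against each other gave 0.04 and the 2 acrylonitrile libraries −0.12. C content (0.72) and G content (0.70) carried nearly the same relation, and A content (−0.69) and T content (−0.69) the reverse, so that no single base stood out. Transcript length (−0.15) and exon number (−0.14) related to the change only weakly.

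With the genes in 10 equal groups by GC content, the median log2 fold change rose at every step. It was −1.18 in the lowest group (GC 29.97% to 38.6%), where 76.9% of genes were lower and 4.22% higher with acrylonitrile, and 1.505 in the highest (62.3% to 83.9%), where 95.8% were higher and 0.330% lower. The median crossed zero between the sixth group (−0.12) and the seventh (0.21). Expressed as RNA, the lowest group held 6.86% and 6.86% of the fragments of untreated 1 and 2 but 2.94% and 2.86% of those of acrylonitrile 1 and 2. The highest group held 10.7% and 10.6% of the untreated and 23.8% and 24.7% of the treated fragments. Genes that rose over 2-fold had a median GC content of 61.7%, those that fell over 2-fold 40.98%, and all genes 49.1%.

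**Figure D3:**
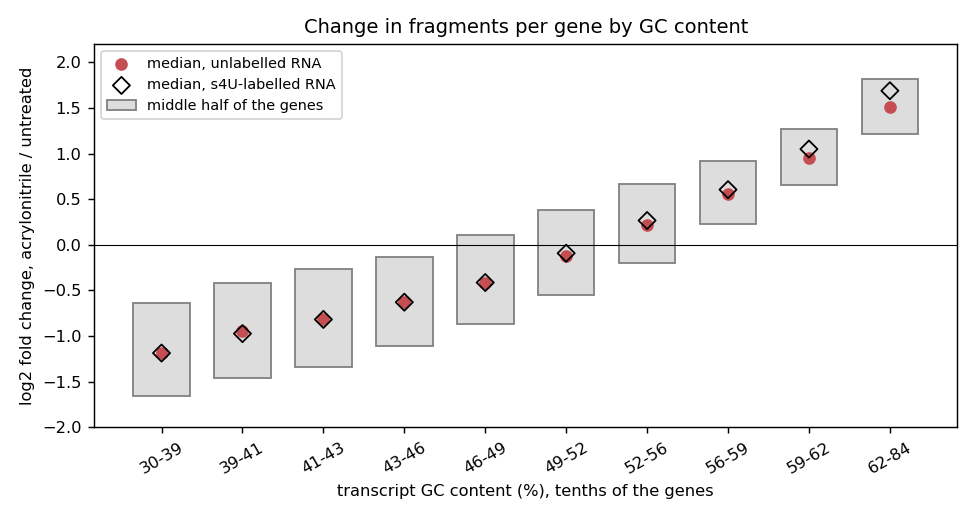
The x axis gives transcript GC content in 10 equal groups of 15168 genes, and the y axis the log2 fold change of acrylonitrile over untreated RNA; grey boxes span the interquartile range, red points are medians in unlabelled RNA and open diamonds medians in s4U-labelled RNA. The red medians climb from −1.18 to 1.505 without a break, and the diamonds follow them from −1.19 to 1.69.

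A fit that removed a smooth GC trend from each library was used beside the main one. It called 2960 genes higher (18.9%) and 3543 lower (22.7%), 4646 genes kept their call and direction, and 429 called genes took the opposite one. UTF1 was at 0.47 in that fit (adjusted p = 0.0919) and MIR3648 at 0.30 (adjusted p = 0.589), whereas FOXD3 (1.25), TWIST1 (2.17) and ABCE1 (−1.77) still passed. GMFB was at −2.72 and PUS7L at −2.24, but the depth rule favoured the fall of both, so their calls are no support. ALB, with 40.8% GC, moved up to 4.10. For MARCKS, RP11-80H5.5 and RP6-24A23.7 no transcript was matched, and the GC term left them as they were.

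The gene lists were described by counts and medians, read against 34.1% higher, 35.2% lower and a median of −0.08 over all genes, and against 18.9%, 22.7% and −0.08 with the GC term. In many lists some members met the depth rule only through the untreated libraries, which favoured a fall. The largest numbers were 66 of 188 chromosome 19 zinc finger genes, 6 of 78 mitochondrial ribosomal protein genes, 5 of 50 RAB GTPases and 4 of 27 replication-dependent histones. Transcription factors of the rapid growth response came first. Of 38 measured immediate early genes, which cells switch on within minutes of a stimulus, 30 rose and none fell, with a median of 1.09, of 0.89 with the GC term (27 rose) and of 0.35 when scaled to all fragments. IER5L, the highest, had 12.1 and 12.6 CPM without and 76.7 and 81.0 CPM with acrylonitrile (log2 fold change 2.67 ± 0.22). JUN, a subunit of AP-1, went from 296.0 and 292.1 CPM to 1018 and 1134 CPM (1.87 ± 0.18). MYC, a growth regulator, went from 427.6 and 429.4 CPM to 830.4 and 859.6 CPM (0.98 ± 0.13, adjusted p = 0.000142). The lowest was ID2 at −0.37 (adjusted p = 0.0753; 0.32 with the GC term).

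Developmental transcription factors showed the same picture. Of 37 measured HOX genes, which pattern the body axis, 32 rose and none fell (median 0.89, 0.60 with the GC term and 0.15 when scaled to all fragments). HOXA3 had 228.4 and 227.0 CPM without and 466.5 and 503.9 CPM with acrylonitrile (1.09 ± 0.19), and HOXB3 had 195.0 and 193.0 CPM against 314.9 and 318.7 CPM (0.71 ± 0.13, but −0.03 when scaled to all fragments). The range ran from 0.17 in HOXA2 (adjusted p = 0.730; −0.56 when scaled to all fragments) to 1.78 in HOXA4. Of 41 SOX and FOX factors 29 rose and 7 fell, from −1.64 in SOX6 to 2.90 in FOXD3, and their median of 1.46 was the highest of the lists shown in the plot of list medians (0.55 with the GC term, 0.72 when scaled to all fragments).

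Signalling and surface genes had more rises than falls by the main fit. Of 20 Notch receptors, ligands and partners 11 rose and 5 fell with a median of 0.83, which was −0.04 with the GC term. HES4, a Notch-responsive repressor, went from 156.8 and 154.6 CPM to 921.0 and 1057 CPM (2.67 ± 0.16, but 0.31 and no call with the GC term), and RBPJ, the DNA-binding partner of the pathway, was lowest at −1.49. Of 41 collagens and laminins 23 rose and 4 fell (median 0.62, but −0.03 with the GC term and −0.12 when scaled to all fragments), between COL25A1 at −0.99 (−0.20 and no call with the GC term) and COL11A2 at 2.31. Of 21 clustered protocadherins, adhesion proteins of neurons that share exons and hence reads, 17 rose and none fell (median 0.54, 0.15 with the GC term and −0.20 when scaled to all fragments), and with the GC term none was called in either direction. They ran from 0.41 in PCDHGC3 (adjusted p = 0.0886; −0.15 with the GC term) to 0.71 in PCDHGC5 (adjusted p = 0.0650).

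Genes of the cell cycle were split. Of 18 G1 cyclins and CDK inhibitors 9 rose and 4 fell (median 0.65, 0.82 with the GC term, −0.09 when scaled to all fragments), from CDK2 at −1.01 to CDKN1C, an inhibitor of cyclin-dependent kinases, at 2.37. Replication-dependent histones, whose mRNAs mostly lack a poly(A) tail, had 27 of 71 members measured, 13 risen and none fallen. Their median was 0.90, 0.44 with the GC term, where 5 rose, and 0.16 when scaled to all fragments, and they ran from HIST1H4E at −1.45 (adjusted p = 0.210) to HIST2H3D at 2.23 (0.78 and no call with the GC term). HIST1H4E met the depth rule only through the untreated libraries. Of 39 genes of replication licensing and DNA polymerases 5 rose and 24 fell (median −0.68, −0.38 with the GC term). CDT1, a licensing factor, was the highest at 1.96, and RPA3, a subunit of the single-strand binding complex, the lowest at −2.34, with 11.7 and 13.2 CPM without and 3.81 and 0.734 CPM with acrylonitrile (−1.89 and no call with the GC term).

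Genes of chromosome maintenance were described list by list. Of 38 genes of homologous recombination and the Fanconi pathway, which repair broken and crosslinked DNA, 25 fell and 5 rose (median −0.97). With the GC term 15 fell, none rose and the median was −0.26. XRCC3, which acts in the same repair, was highest at 1.44 (0.15 and no call with the GC term). Of 23 subunits of cohesin and condensin, the rings that hold and fold chromosomes, 15 fell and 3 rose (median −0.90, −0.22 with the GC term), between STAG2 at −1.94 and NCAPH2 at 1.31 (0.19 and no call with the GC term). Of 27 centrosomal CEP genes 16 fell and 5 rose, between CEP70 at −1.73 and CEP250 at 1.05, and the median of −0.91 was 0.03 with the GC term, where 9 rose and 7 fell. Of 38 kinesins, motors on microtubules, 17 fell and 14 rose (median −0.29, −0.15 with the GC term), between KIF20B at −2.09 and KIF26A at 2.17 (0.29 and no call with the GC term). Of 35 histone methyltransferases and demethylases 16 rose and 16 fell, between KDM5A at −1.41 and SUV420H2 at 1.68 (0.05 and no call with the GC term), and the median of 0.05 was −0.10 with the GC term and −0.69 when scaled to all fragments.

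Nuclear pore genes and 3 lists of RNA-processing genes followed. Of 22 nucleoporins, the building blocks of the nuclear pore, 18 fell and 2 rose, with the lowest median of these lists at −1.04 (−0.55 with the GC term, where 14 fell and 1 rose). NUP205, a scaffold subunit, had 302.7 and 296.3 CPM without and 70.2 and 59.0 CPM with acrylonitrile (−2.21 ± 0.18), and NUP62 was highest at 0.70 (−0.04 when scaled to all fragments, 0.12 and no call with the GC term). Of 51 core spliceosome genes 27 fell and 10 rose (median −0.60, −0.27 with the GC term), between LSM5 at −2.43 (−1.29 and no call with the GC term) and SNRNP70 at 1.92. LSM5, with 159 and 148 fragments without and 12 and 7 with acrylonitrile, met the depth rule only through the untreated libraries. Of 49 DEAD and DEAH box helicases 27 fell and 9 rose (median −0.39, −0.28 with the GC term), between DDX18 at −2.45 and DDX51 at 1.96. SR proteins and hnRNPs, splicing regulators that bind RNA, were divided, with 13 risen and 17 fallen of 32, and their median of −0.53 was 0.28 with the GC term, where 16 rose and 9 fell. Within this list HNRNPU went from 902.8 and 911.8 CPM to 2323 and 2503 CPM (1.41 ± 0.17), while HNRNPA1 went from 1010 and 1036 CPM to 301.5 and 270.5 CPM (−1.84 ± 0.19). HNRNPUL2 (1.56) and SRSF3 (−2.24) were its ends.

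Protein synthesis was covered by 4 lists. Of 81 cytosolic ribosomal protein genes 25 fell (30.9%) and 16 rose (19.8%), both shares under those of all genes (median −0.33). With the GC term 13 fell (16.0%) and 6 rose (7.41%), again under all genes (median −0.08). RPS2 had 1414 and 1403 CPM without and 2746 and 2885 CPM with acrylonitrile (1.00 ± 0.18, but 0.076 and no call with the GC term), and RPL3 1118 and 1118 CPM against 1758 and 1692 CPM (0.63 ± 0.15, but −0.11 when scaled to all fragments, and 0.31 and no call with the GC term). The ends were RPL22L1 at −2.73 and RPS15 at 1.75 (0.63 and no call with the GC term); many ribosomal protein genes have processed pseudogenes, so their counts are uncertain. Of 78 mitochondrial ribosomal protein genes 31 fell and 19 rose (median −0.30, −0.26 with the GC term), between MRPL50 at −3.05 and MRPS26 at 2.02. MRPL50 had 150 and 150 fragments without and 8 and 4 with acrylonitrile, and RPL22L1 had 201 and 198 against 11 and 9. Both met the depth rule only through the untreated libraries. Of 52 translation initiation factors 27 fell and 11 rose (median −0.39, −0.13 with the GC term), between EIF3E at −2.46 and EIF3B at 1.39, 2 subunits of one complex. Of 37 aminoacyl-tRNA synthetases, which charge tRNAs, 25 fell and 5 rose, between FARSB at −2.04 and AARS2 at 0.99 (0.30 and no call with the GC term), and their median of −0.54 was −0.70 with the GC term, where 25 fell and 1 rose.

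Protein turnover and folding differed between lists. Of 41 proteasome subunits 29 fell and 5 rose (median −0.73, and −0.61 with the GC term, where 26 fell and 2 rose). PSMA2, a core particle subunit, fell from 37.4 and 37.9 CPM to 7.25 and 6.85 CPM (−2.41 ± 0.33), while PSMB10, the subunit that replaces a core peptidase in immune cells, was highest at 1.38 (0.21 and no call with the GC term). Of 35 heat shock chaperones 20 fell and 8 rose (median −0.78, −0.23 with the GC term), between HSPA13 at −2.37 and HSPB1 at 1.57 (0.018 and no call with the GC term). The most abundant were HSP90AB1, with 771.9 and 764.0 CPM without and 285.6 and 246.7 CPM with acrylonitrile (−1.53 ± 0.16), and HSP90AA1, with 718.4 and 722.3 CPM against 235.1 and 220.3 CPM (−1.66 ± 0.16). Of 32 ubiquitin-conjugating enzymes 13 rose and 11 fell, between UBE2V1 at −1.36 and UBE2M at 2.25, and the median of −0.15 was 0.53 with the GC term, where 17 rose and 5 fell.

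Energy metabolism and transport gave mixed counts. Of 86 nuclear-encoded oxidative phosphorylation subunits 35 fell and 14 rose (median −0.44, −0.42 with the GC term), between NDUFA5 at −2.05 and ATP5D at 1.995, neither of which was called with the GC term (−0.82 and 0.023). The 13 mitochondrially encoded mRNAs could not be described, since every gene on the mitochondrial chromosome was listed at 0. Of 18 glycolytic enzymes 5 rose and 5 fell (median −0.23), and with the GC term 10 fell and 1 rose (median −0.53). LDHB, a lactate dehydrogenase subunit, had the steepest fall there, from 419.0 and 406.8 CPM to 62.2 and 60.0 CPM (−2.76 ± 0.20), and PFKL was highest at 1.21 (−0.15 with the GC term). Of 50 RAB GTPases, switches of vesicle traffic, 19 rose and 16 fell, between RAB11A at −2.06 and RAB32 at 2.21, and the median of 0.20 was −0.54 when scaled to all fragments. Of 22 tubulins 9 rose and 5 fell, between TUBA1A at −0.75 and TUBB3 at 1.23 (0.013 and no call with the GC term), and the median of 0.25 was −0.03 with the GC term and −0.48 when scaled to all fragments.

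**Figure D4:**
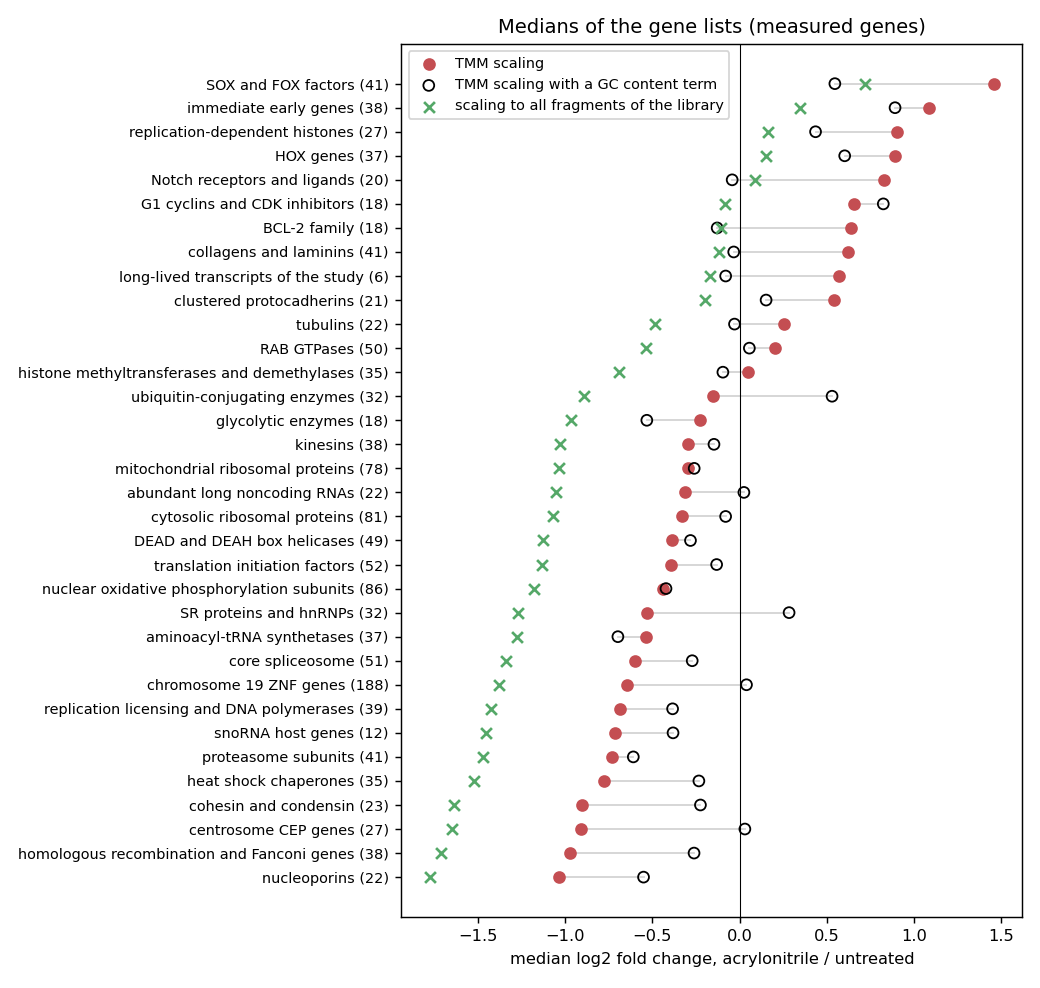
Each line is a gene list with its number of measured genes, and the x axis is the median log2 fold change of acrylonitrile over untreated RNA under TMM scaling (red), TMM scaling with a GC content term (open circles) and scaling to all fragments of the library (green crosses). SOX and FOX factors (1.46), immediate early genes (1.09), replication-dependent histones (0.90) and HOX genes (0.89) keep positive medians under all 3. Many lists keep negative ones, among them nucleoporins (−1.04), homologous recombination and Fanconi genes (−0.97), proteasome subunits (−0.73) and aminoacyl-tRNA synthetases (−0.54).

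Zinc finger genes and noncoding RNAs were described apart. Of 188 measured zinc finger genes on chromosome 19, many of them near-copies of each other, 88 fell and 29 rose (median −0.64), but with the GC term 22 rose and 17 fell with a median of 0.04. Of the 188, 66 met the depth rule through the untreated libraries alone. ZNF225, the lowest, was one of them, with 58 and 44 fragments without and 1 and 1 with acrylonitrile, and ZNF579 was highest at 2.67. Of 602 lincRNAs 40.7% fell and 18.6% rose (median −0.57, −0.42 with the GC term), against 35.7% and 35.5% of 13362 protein-coding genes. LincRNAs held 1.87% and 1.87% of the fragments of untreated 1 and 2 and 0.918% and 0.896% of those of acrylonitrile 1 and 2. Of 22 abundant long noncoding RNAs 9 fell and 6 rose, between MIAT (29 and 24 fragments without, 2 and 1 with acrylonitrile) and TERC, the telomerase RNA, at 1.86 (0.16 and no call with the GC term), and the median of −0.31 was 0.02 with the GC term. Of 12 snoRNA host genes 5 fell and 2 rose, between SNHG1 at −2.16 and SNHG7 at 1.53 (−0.09 with the GC term).

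Genes that the study used as examples of short and long lived mRNAs were placed on the same scale. Of 18 measured members of the BCL-2 family, regulators of apoptosis, 9 rose and 2 fell with a median of 0.64, which was −0.13 with the GC term and −0.10 when scaled to all fragments. BBC3, the cell death activator PUMA, was highest at 1.78 (−0.20 with the GC term) and BCL2L11, known as BIM, lowest at −0.71 (−0.24 and no call with the GC term). Of 6 long-lived transcripts 3 rose and 1 fell (median 0.57, −0.08 with the GC term and −0.17 when scaled to all fragments). MYH9, a nonmuscle myosin heavy chain, went from 524.6 and 530.8 CPM to 1260 and 1272 CPM (1.26 ± 0.13), and FLNA, an actin crosslinker, from 689.6 and 688.0 CPM to 1467 and 1432 CPM (1.07 ± 0.25, but −0.16 with the GC term). MSN, which ties actin to the membrane, was at −0.43, CRTAP, a collagen-modifying protein, at 0.55 (−0.20 when scaled to all fragments), APLP2 at −0.17 (adjusted p = 0.226) and PRDX5 at 0.59 (adjusted p = 0.128; −0.45 with the GC term). EIF1 was at −0.36 (adjusted p = 0.0314; 0.038 with the GC term) and CCND1, the G1 cyclin, at 1.01.

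Liver markers had higher values with acrylonitrile. Of 16, 8 met the depth rule, and 5 of these (ALB, AFP, APOB, TF and AMBP) had 20 fragments in all 4 libraries, a restriction chosen after seeing the data. These 5 rose, with a median of 3.17 and of 3.91 with the GC term. APOA1 (11 and 11 fragments against 28 and 36) and AHSG (10 and 4 against 23 and 34) met the rule only through the acrylonitrile libraries, so their rise was set by that rule and is not counted, and SERPINA1 had 27 and 11 against 52 and 83. ALB (40.8%), AFP (38.95%), APOB (43.5%) and TF (41.8%) had a GC content under the median of all genes, and AMBP (56.6%), APOA1 (62.96%), AHSG (54.6%) and SERPINA1 (53.1%) were above it. AFP, the fetal counterpart of albumin, had 29 and 27 fragments without and 60 and 110 with acrylonitrile. APOB, the core protein of low-density lipoprotein, had 37 and 49 fragments against 69 and 153, and TF, transferrin, 37 and 31 against 79 and 119. Summed over the list, the level was 28.0 and 29.8 fragments per 1000000 in genes in untreated RNA, 114.2 in acrylonitrile 1 and 294.2 in acrylonitrile 2, so the treated replicates differed from each other more than acrylonitrile 1 did from the untreated ones on a linear scale. Without acrylonitrile 2 the 5 still rose, with a median of 2.36, and over all genes 4523 then rose and 4373 fell. In s4U-labelled RNA the sum was 23.0 and 17.2 without and 38.6 and 79.3 with acrylonitrile. HPX did not share this form, with 16 and 15 fragments without and 6 and 6 with acrylonitrile (1.35 and 1.396 against 1.09 and 1.44 per 1000000), below the depth rule. HP had no fragment in any of the 4 libraries, and APOH and TTR at most 1. The chemical step acted on RNA already taken from the cells, but the sources used here do not state that treated and untreated libraries shared the same RNA. These values describe RNA in the libraries, and the make-up of the cultures was not tested. The source of these transcripts and their part in the other results were not tested.

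Markers of other cell types gave smaller differences. Of 10 breast markers 6 were measured and 5 rose, and values ran from GREB1 at 0.21 (adjusted p = 0.193; −0.53 when scaled to all fragments) to KRT8 at 1.20, with KRT19 at 0 in all 4 libraries. Their sum was 350.6 and 351.4 fragments per 1000000 in untreated and 529.4 and 575.3 in treated RNA. Of 7 fibroblast markers 2 were measured, COL1A1 at 0.86 (−0.29 with the GC term) and COL3A1 at 0.30 (adjusted p = 0.409; −0.43 when scaled to all fragments). The genes linked to HEK293 cells summed to 677.1 and 683.3 without and 995.1 and 1007 with acrylonitrile, led by NEFL, a neurofilament subunit, at 1.31, while LIN28B, a repressor of let-7 microRNAs, was at −1.03 (−0.064 and no call with the GC term).

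The same chemical contrast in s4U-labelled RNA used 4 other libraries. The log2 fold changes of the 15628 genes in the 2 contrasts correlated with a Spearman rho of 0.89 (Pearson r 0.87, across genes, with no library in common). Of the 10823 genes called in unlabelled RNA, 10405 (96.1%) had the same sign in s4U-labelled RNA and 9031 were also called there in that direction, while 90 were called the opposite way. The share of same signs over all genes was not counted, so these numbers have no background to be read against. Both contrasts came from one fit, and GC content correlated with the change in each (Spearman rho 0.75 in unlabelled and 0.74 in s4U-labelled RNA). The test of the difference itself passed in 225 genes (1.44%), of which 166 were higher and 59 lower in s4U-labelled RNA, and an unadjusted p under 0.05 was reached by 2702. Without untreated 1 the 225 came down to 25, without untreated 2 to 21, without acrylonitrile 1 to 12 and without acrylonitrile 2 to 14. Pseudogenes made up 37 of the 225, or 7.14% of the 518 measured, against 1.33% of the protein-coding genes, and 35 of these 37 were higher with s4U. Cytosolic ribosomal proteins gave 8 of 81. LDHB, TUBA1A and MSN were among the genes that passed: LDHB fell by 2.76 on the log2 scale without s4U and by 1.183 with it, a difference of 1.57 ± 0.26 (adjusted p = 0.0285).

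Mismatch shares were finally compared gene by gene in 12705 genes, those with no library under 20 fragments and with 10 mismatch-bearing fragments over the 4. The median share was 7.19% without acrylonitrile (interquartile range 6.37% to 8.16%) and 7.42% with it (6.16% to 8.97%). It was higher in 126 genes (0.992%) and lower in 52 (0.409%), and an unadjusted p under 0.05 was reached by 1355. Without untreated 1, 58 were higher and 13 lower, without untreated 2, 40 and 12, without acrylonitrile 1, 106 and 30, and without acrylonitrile 2, 80 and 31. Neither the share in treated RNA nor its change followed T content (Spearman rho 0.02 and 0.04 across 12450 genes) or GC content (−0.01 and −0.06), in contrast to the fragment counts. Of the 178 genes that passed in either direction (1.4%), 171 were protein-coding. Of the 126 genes with a higher share, 53 were higher and 39 lower in fragments. The 52 with a lower share were mostly higher in fragments, with 43 higher and 4 lower. Among the 12874 genes with 20 fragments in all 4 libraries, 5116 were higher and 4204 lower. Across 12450 genes the change of the share correlated weakly with the log2 fold change of the fragments (Spearman rho −0.13).

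The 5 largest rises among genes with 100 fragments in each library were these. IPO7, an importin that carries proteins into the nucleus, had a mismatch in 14.6% and 12.8% of its fragments without acrylonitrile and in 41.5% and 37.3% with it. The widest of the 4 Wilson intervals was 31.6% to 43.3%, on 255 fragments, and the log2 odds rose by 2.05 ± 0.15. GRSF1, an RNA-binding protein of mitochondrial RNA granules, went from 16.2% and 13.7% to 38.96% and 41.1% (1.92 ± 0.13). VEGFB, a growth factor of the VEGF family, was already at 25.1% and 26.8% in untreated RNA and reached 46.5% and 56.8% (1.59 ± 0.15), with Wilson intervals that did not overlap between the treated replicates (43.0% to 50.1% and 52.9% to 60.5%). ERO1LB, an oxidase of the endoplasmic reticulum, went from 15.8% and 14.8% to 42.3% and 37.7%, and TMED2, a cargo receptor of early secretion, from 17.9% and 18.5% to 38.3% and 43.5%. Groups did not overlap in any of the 5, and all 5 had untreated shares well over the median gene.

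Most of the difference in these 5 genes lay in fragments with a single mismatch, and in 4 of them both treated libraries also had more fragments with several. In IPO7 fragments with exactly 1 mismatch went from 13.0% and 11.4% to 40.1% and 34.9%, while those with 2 or more were at 1.56% and 1.37% against 1.44% and 2.35%. GRSF1 had 14.9% and 12.5% with exactly 1 without and 37.0% and 35.9% with acrylonitrile, and 1.21% and 1.19% against 2.01% and 5.13% with 2 or more. In VEGFB fragments with 2 or more were common throughout, at 10.7% and 11.4% without and 17.1% and 20.3% with acrylonitrile. They were at 1.699% and 1.95% against 6.75% and 5.19% in ERO1LB, and at 2.26% and 1.899% against 4.59% and 5.22% in TMED2. In RNA with s4U alone, IPO7 stood at 19.03% and 14.7%, GRSF1 at 19.6% and 14.5% and VEGFB at 30.4% and 20.4%, all under the shares of unlabelled RNA with acrylonitrile. ERO1LB was uneven there, with 41.03% and 18.9%.

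The largest falls also began from shares above the median gene, which the ranking by percentage points favoured. BEX2, an X-linked gene expressed in neurons, had a mismatch in 21.9% and 26.5% of fragments without acrylonitrile and in 9.09% and 7.97% with it (log2 odds −1.73 ± 0.30). GAL, the neuropeptide galanin, had 20.1% and 20.6% against 9.58% and 9.09% on 712 to 1221 fragments (−1.31 ± 0.15), while its fragment count rose by 2.12 on the log2 scale. HOXA4 had 11.3% and 21.9% without and 1.81% and 7.09% with acrylonitrile, on 128 to 166 fragments, with both groups wide. CTSF, a lysosomal protease, had 20.7% and 23.6% against 13.5% and 8.40%, and TRIM4, a ubiquitin ligase of the TRIM family, 11.1% and 14.6% against 5.39% and 5.44%. With acrylonitrile TRIM4 and HOXA4 lay under the median gene, and BEX2, GAL and CTSF stayed above it. In RNA with s4U alone, BEX2 stood at 29.0% and 34.8%, GAL at 34.6% and 26.9% and HOXA4 at 22.3% and 24.9%. CTSF was at 17.9% and 19.2% there, and TRIM4 at 19.1% and 17.2%.

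**Figure D5:**
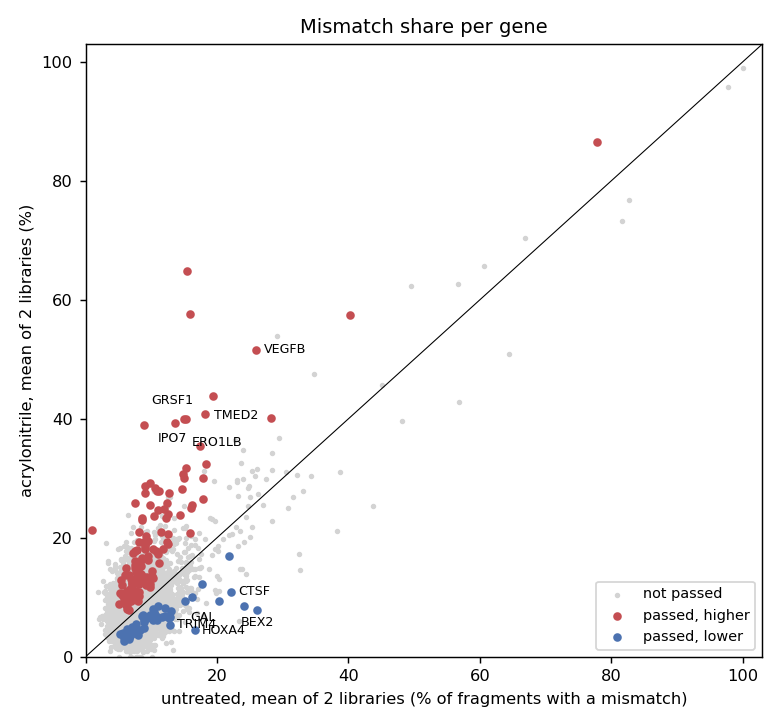
Each point is one of 12705 genes, with the mean percentage of fragments carrying a mismatch in the 2 untreated libraries on the x axis and in the 2 acrylonitrile libraries on the y axis; red and blue mark the 126 genes that were higher and the 52 that were lower, and the line marks equal shares. Most points crowd between 5% and 10% around the line, and IPO7, GRSF1, ERO1LB, TMED2 and VEGFB stand above it at 39.4% to 51.6% with acrylonitrile.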

How the data were processed

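Library tables and gene tables were used as deposited. The authors trimmed reads with cutadapt 1.18, kept 1 read of each identical group, removed ribosomal reads, aligned the rest to GRCh37 with HISAT2 2.1.0, kept unique proper pairs and dropped mismatches of low base quality or at known variants. Sites seen repeatedly as mismatches in their control samples were also dropped in every library, so mismatches at such sites are missing from these tables; the sources do not say which libraries these were, and if they were the untreated ones the filter rests on one side of the mismatch comparison. The deposited values are whole-number counts of fragments by number of mismatches, per library (unit: counts) and per gene (GENCODE release 19, as text strings of such counts, with no other measurement); the tables do not name the mismatch type, taken here as T-to-C. The sources used here do not name the tool that assigned fragments to genes. Without stated strand use, overlapping genes and genes that share reads are uncertain.

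Counts per gene were summed. Fragments were compared with edgeR 4.0.16 (quasi-likelihood fit over 8 libraries in 4 groups, TMM, Benjamini-Hochberg adjusted p under 0.05), and mismatch shares with edgeR on paired mismatch and no-mismatch counts of 4 libraries. Library shares were compared by a two-sided exact permutation test. The GC term is a per-library spline with 6 degrees of freedom on the GC content of a transcript from GENCODE release 44 lifted to GRCh37, found for 97.06% of the genes compared. DESeq2 1.42.0 and limma 3.58.1 served as alternatives, beside other scalings, filters and left-out libraries. Scripts were tested on simulated data. Genes named were the 10 largest rises and 10 largest falls among called genes with non-overlapping CPM and a mean of at least 100 fragments; the highest and lowest member of each list, with the 2 most abundant of some lists; 5 rises and 5 falls of mismatch share with at least 100 fragments in each library; and genes the study named. A gene and a sequence that these rules chose are not reported here. Members and lists were chosen with earlier results of these data known. Python 3.11.15 and SciPy 1.17.1 were used.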

Additional observations from a re-analysis of the deposited data

Results flagged for a closer look

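The change with acrylonitrile differed between s4U-labelled and unlabelled RNA, by the edgeR test of the difference itself, in 3 of the genes named above. LDHB fell by 2.76 on the log2 scale in unlabelled and by 1.183 in s4U-labelled RNA, a difference of 1.57 ± 0.26 (adjusted p = 0.0285). TUBA1A, an alpha-tubulin, was at −0.75 in unlabelled and at 1.14 in s4U-labelled RNA, a difference of 1.89 ± 0.26 (adjusted p = 0.0163). MSN was at −0.43 and 0.62, a difference of 1.05 ± 0.16 (adjusted p = 0.0219). Leaving out any 1 of the 4 unlabelled libraries ended all 3 calls (adjusted p between 0.0761 and 0.224), while the differences ranged from 1.53 to 1.70 in LDHB, from 1.70 to 2.24 in TUBA1A and from 1.00 to 1.20 in MSN, and scaling to all fragments ended that of MSN (adjusted p = 0.0530). The s4U-labelled libraries come from other cultures, and the s4U dose of the treated arm is uncertain, so label, dose and culture cannot be told apart.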

How the results depend on the processing

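Genes higher and lower in fragments numbered 5327 and 5496. Scaling to all fragments of the library gave 2128 and 9127, the GC content term 2960 and 3543, and the replicate block with the GC content term 2957 and 3525. DESeq2, DESeq2 size factors, filterByExpr, no filter on low counts, the 4 unlabelled libraries alone and fragments without a mismatch moved both counts by less than 1.5 times, and leaving out each library gave 4409 to 4523 higher and 4373 to 4529 lower. Replicate numbers are shared between groups, but deviations of same-numbered libraries did not correlate (r −0.01 over 11473 genes), and the replicate block gave 5344 and 5565. For the difference between s4U-labelled and unlabelled RNA (225 genes) the replicate block gave 257, the GC content term 370 and scaling to all fragments 104, and leaving out a library gave between 12 and 25. For mismatch shares (126 genes higher and 52 lower) the replicate block gave 133 and 57, counting only fragments with at least 2 mismatches 49 and 3, requiring at least 100 fragments in each library 159 and 95, and limma on the logit of the share 243 and 86. Leaving out a library gave 40 to 106 higher and 12 to 31 lower.

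Of 110 named genes, 10 took the opposite sign under scaling to all fragments: RPL3 (−0.11), HOXA2 (−0.56), HOXB3 (−0.033), PCDHGC5 (−0.029), PCDHGC3 (−0.33), NUP62 (−0.043), GREB1 (−0.53), COL3A1 (−0.43), PRDX5 (−0.15) and CRTAP (−0.20). With the GC content term, without and with the replicate block, 10 did so: ID2 (0.32 and 0.32), PFKL (−0.15 and −0.15), SNHG7 (−0.094 and −0.094), BBC3 (−0.20 and −0.20), PCDHGC3 (−0.15 and −0.15), GREB1 (−0.021 and −0.022), COL1A1 (−0.29 and −0.28), PRDX5 (−0.45 and −0.45), EIF1 (0.038 and 0.036) and FLNA (−0.16 and −0.16). With no filter on low counts HOXA2 did (−0.018). HOXA2, PCDHGC5, PCDHGC3, GREB1, COL3A1, PRDX5 and ID2 had no call by the main test. The GC content term also ended the call of 24 further named genes without a change of sign, and their values are given with the genes above. Of single libraries, calls were lost for EIF1 without any one of the 4 (−0.32 to −0.42), for MSN and RPL3 without untreated 1 (−0.40 and 0.64) or untreated 2 (−0.44 and 0.63), for MSN also without acrylonitrile 2 (−0.38), for LSM5 without acrylonitrile 1 (−2.65) or 2 (−2.29), and for RPA3 (−1.71) and TUBA1A (−0.56) without acrylonitrile 2.

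The acrylonitrile minus untreated difference in mismatch share inside genes was 0.17 percentage points, 0.163 for at least 2 mismatches and 0.00637 to 0.333 with a library left out. Outside genes, the difference in the share of fragments was 20.9 points, and 19.7 to 22.1 with a library left out. The causes of these shifts were not tested. With 6074118 to 13102014 fragments a library, counting error is small for library shares, and 2 libraries per group limit every test. In simulated data with these depths, edgeR recovered 85% of 2-fold and 30% of 1.5-fold changes in fragments, and 51% of doubled mismatch shares. The simulation gave all genes the same assumed spread and changed only a small part of them, unlike the real data. Its mismatch shares had counting error alone, and only those of well-covered genes were doubled. These figures are therefore not the power of the tests on the real libraries.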
